A study of Mus musculus with 2 samples.

Results

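Very long genes, here protein-coding gene records longer than 300 kb, held 3460 intronic CTCF peaks in the heart of newborn mice, 7.98% of the 43380 peaks of the optimal list on chromosomes 1 to 19 and part of 44533 peaks in all. A peak was taken when its summit lay inside such a record of GENCODE M21, outside every exon record and more than 1000 bp from the 5' end of every gene. Of 3859 summits in the 541 very long records, 230 were left out as near a 5' end and a further 169 as exonic. The group measured was CTCF ChIP of whole heart from B6NCrl mice at postnatal day 0, in 2 libraries called replicate 1 and replicate 2; sex was not collected. The labels tie both libraries to a single tissue sample and a single donor identifier, and what varies between them may therefore be technical only. With 1 group and no treated animals, the comparisons set very long genes against shorter genes and against intergenic sequence. Whole heart mixes cell types, so a site bound weakly in all cells and a site bound in few cells cannot be told apart, and peak lists carry no expression with which to check the tissue label.

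CTCF is a DNA-binding protein with a row of zinc fingers that reads a long sequence motif with a direction. Cohesin, the ring complex that extrudes loops of chromatin, is halted at CTCF sites, most of all where the motif points toward the approaching ring, so pairs of motifs that face each other often hold the feet of a loop. Sites within introns can place loop feet inside a gene, and very long genes, many of which serve adhesion, synapses and muscle, have the most intronic sequence to hold them.

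The strongest of these peaks carried clear forms of the CTCF core consensus, a motif of 14 bases. Either strand was read, from 50 bp left to 50 bp right of the summit, and up to 2 mismatches were allowed. The lines below show it in 6 of the 12 strongest peaks, chosen for the range of genes they lie in, with the core in capitals and 13 bases on either side. Coordinates are of GRCm38 (mm10) and the sequence, from the RefSeq copy of that genome, is read 5′ to 3′ on the strand given.
Iqsec1, chr6:90737553-90737592, plus strand, 1 mismatch: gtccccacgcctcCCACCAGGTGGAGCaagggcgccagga
Gse1, chr8:120319683-120319722, plus strand, 0 mismatches: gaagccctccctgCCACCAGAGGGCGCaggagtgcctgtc
Palld, chr8:61539998-61540037, plus strand, 1 mismatch: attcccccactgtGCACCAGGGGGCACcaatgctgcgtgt
Lsamp, chr16:42165170-42165209, plus strand, 1 mismatch: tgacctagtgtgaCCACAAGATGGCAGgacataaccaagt
Dnah11, chr12:117993658-117993697, plus strand, 2 mismatches: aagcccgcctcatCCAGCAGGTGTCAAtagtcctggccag
Cacna1d, chr14:30137145-30137184, plus strand, 1 mismatch: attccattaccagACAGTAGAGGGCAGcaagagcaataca
Iqsec1, an exchange factor for the small GTPase Arf6, held the strongest peak, at a pooled signal of 404 and at 220 and 186 in replicates 1 and 2. The peak lay 251 kb from the 5' end, 75.5% of the way along the gene, and its window held a second core as good as the one shown, as did that of Lsamp. In Gse1, which encodes a nuclear coiled-coil protein, a peak 91.2 kb from the 5' end had a signal of 350, with 183 and 167 in the libraries, over a core with 0 mismatches. The Palld peak, in a gene for an actin-bundling protein, had a signal of 321, with 175 and 147 in the libraries. At 2181 kb from the 5' end of Lsamp, a neuronal adhesion gene, a peak of 316 (172 and 144) lay in the last stretch of the gene, 99.2% of the way along. Strength and core did not always go together: the fifth strongest peak, in Cacna1e at 298 (166 and 133), and the twelfth, again in Gse1 at 263 (141 and 122), had no core within the limit, and the best match in each had 3 mismatches. In all, 5 of the 12 strongest lay in Gm20388, a record that encloses 71 other coding genes, and 2 of these in Gse1.

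A second set shows the core of the strongest peak in genes of the heart, its channels and its signalling, which were named in advance of these counts but with earlier results of these data known.
Ryr2, chr13:11563810-11563849, minus strand, 0 mismatches: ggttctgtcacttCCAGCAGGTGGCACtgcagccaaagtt
Cacna1c, chr6:118923046-118923085, plus strand, 1 mismatch: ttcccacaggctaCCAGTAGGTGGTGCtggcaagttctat
Cacnb2, chr2:14677061-14677100, minus strand, 2 mismatches: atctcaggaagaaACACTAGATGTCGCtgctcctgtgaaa
Prkg1, chr19:31342350-31342389, plus strand, 0 mismatches: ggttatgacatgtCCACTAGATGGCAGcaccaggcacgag
Pde4d, chr13:109776271-109776310, plus strand, 0 mismatches: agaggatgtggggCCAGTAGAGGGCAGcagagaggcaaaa
Sgcd, chr11:47890497-47890536, minus strand, 1 mismatch: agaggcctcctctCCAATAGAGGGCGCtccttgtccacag
Ctnna3, chr10:64084572-64084611, plus strand, 1 mismatch: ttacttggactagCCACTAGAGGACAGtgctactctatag
Zfpm2, chr15:41029889-41029928, minus strand, 0 mismatches: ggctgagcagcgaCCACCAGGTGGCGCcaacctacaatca
Prdm16, chr4:154329042-154329081, plus strand, 2 mismatches: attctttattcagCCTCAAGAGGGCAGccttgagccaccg
Ryr2, the calcium release channel of the sarcoplasmic reticulum, had its strongest peak at a signal of 94.1 (59.5 and 34.6 in the libraries), 543 kb from the 5' end and 98.1% along the gene. In Cacna1c, the pore subunit of the cardiac L-type calcium channel, the strongest peak reached 206 (105 and 101). The auxiliary subunit gene Cacnb2 reached 149 (82.3 and 66.0). Replicate 1 was the higher of the libraries at each of these, as it was at most peaks. Pde4d, a cAMP phosphodiesterase, reached 249.6 (130.05 and 122) and Zfpm2, a cofactor of GATA factors in heart development, reached 245 (112 and 128). The Zfpm2 peak was one where replicate 2 was the higher. The strongest peaks of Ctnna3, an alpha catenin of the intercalated disc, Prdm16, a zinc finger transcription factor, Prkg1, the cGMP-dependent kinase, and Sgcd, a sarcoglycan, had signals of 238, 178, 166 and 131. The peak in Ctnna3 also lies within Lrrtm3, a smaller gene in its intron.

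As a group, these peaks were sparse for the amount of sequence that could hold them. Eligible sequence, the known bases that meet the same rule, came to 295 Mb in very long genes, and held 11.7 peaks per Mb. Genes of 100 to 300 kb held 20.5 per Mb, genes of 30 to 100 kb 25.8, genes of up to 30 kb 31.5, and intergenic sequence 12.6. Density thus fell with each step in gene length, and very long genes stood at 0.455 times the density of genes of 30 to 100 kb and 0.934 times that of intergenic sequence. When each library's own 44533 strongest peaks were used, very long genes held 3445 and 3463 peaks, or 11.7 ± 0.0431 per Mb (SD, n = 2), against 25.6 ± 0.276 in genes of 30 to 100 kb and 12.5 ± 0.0725 between genes. Both gaps were larger than the spread between libraries. The libraries share 1 tissue sample and were cut to the same number of peaks, and their spread does not cover variation between genes or animals.

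**Figure D1:**
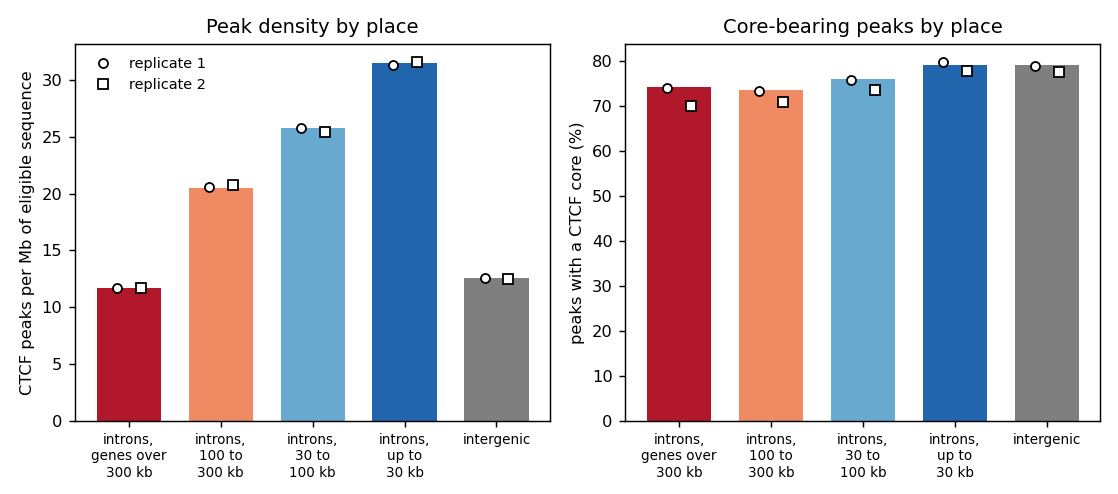
Left, CTCF peaks per Mb of eligible sequence by place, and right, the percentage of peaks with a core of at most 2 mismatches within 50 bp. Bars are the optimal list and open symbols each library's own strongest peaks. Density is lowest in genes over 300 kb, at 11.7 per Mb, and highest in genes of up to 30 kb, at 31.5, while the core share in the optimal list lies between 73.6% and 79.2%; the libraries range more widely, with replicate 2 at 70.1% in genes over 300 kb.

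Base composition moved with this order. Eligible sequence had a GC content of 40.8% in very long genes, 42.9%, 43.5% and 44.8% in the 3 shorter classes, and 40.9% between genes. Within 100 kb windows of like GC content, very long genes remained below genes of 30 to 100 kb, but by less. The ratio of densities was 0.635 in windows under 38% GC, 0.613 at 38 to 40%, 0.714 at 40 to 42%, 0.737 at 42 to 45% and 0.733 at 45% and over, where all windows pooled had given 0.455. The value under 38% rests on 41 peaks in 6.79 Mb of genes of 30 to 100 kb. To genes of 100 to 300 kb the ratio was 0.447 under 38%, a wider gap than the pooled 0.572. It was 0.632, 0.706, 0.841 and 0.869 in the richer classes. Under 38%, density did not fall with each step in gene length: genes of up to 30 kb held 2.44 per Mb, on 7 peaks. Against intergenic sequence the ratio changed side: very long genes were denser in GC-poor windows (3.83 against 1.86 per Mb under 38%, a ratio of 2.06) and sparser in GC-rich ones (27.7 against 37.0 per Mb at 45% and over, a ratio of 0.747). In the window class between, at 40 to 42%, they held 10.7 and 9.80 per Mb. GC-poor windows under 40% made up 22.5% and 23.2% of the eligible sequence of very long genes, in the classes under 38% and at 38 to 40%, against 3.12% and 9.53% of that of genes of 30 to 100 kb. How much of the difference GC content accounts for was not tested.

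**Figure D2:**
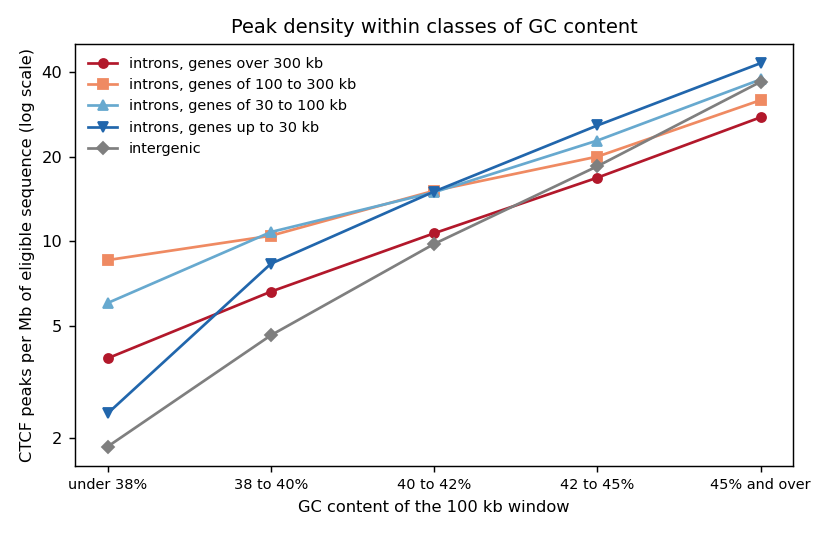
CTCF peaks per Mb of eligible sequence, on a log scale, in 100 kb windows grouped by GC content, for introns of genes in 4 length classes and for intergenic sequence. Very long genes rise to 27.7 per Mb in the windows of 45% GC and over; they lie above intergenic sequence in the lowest class, at 3.83 against 1.86 per Mb, and below it in the highest.

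Although sparse, the peaks reached nearly every very long gene. Of 541 such genes, 509 (94.1%, exact binomial 95% interval 91.8 to 95.9%) held at least 1, against 35.5% of protein-coding genes of all lengths under the same rule. The share was 86.5% in genes of 100 to 300 kb, 60.5% at 30 to 100 kb and 17.0% up to 30 kb, an order that follows the sequence each gene offers. A peak at the gene's own 5' end, within 1000 bp, did not show this order: 26.6% of very long genes had one (22.9 to 30.6%), beside 21.9% of genes of all lengths, and the shares were 29.7%, 25.3% and 19.4% in the shorter classes. These intervals cover counting error only, and neighbouring genes are not independent.

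Counts per gene ran widely. The median very long gene held 5 peaks, 48 genes held 1, 352 held 2 to 9 and 109 held 10 or more. Density had a median of 9.93 per Mb, quartiles of 5.27 and 16.9, and a highest value of 95.3. The 54 genes with the most peaks held 32.4% of them when each gene counts those inside it. Between libraries the count was the same in 216 genes and within 1 in 439 of 541. Across the 541 genes, counts in replicate 1 and replicate 2 had a Spearman correlation of 0.953, as a description over genes that share both libraries.

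Within the very long genes, length and GC content again went with density. Genes of 300 to 500 kb held 14.1 peaks per Mb, genes of 500 to 1000 kb 10.4 and the 55 genes over 1000 kb 9.86. Composite records, 6 gene models that each enclose more than 5 other protein-coding genes, bear on the longest band, which holds 3 of them: without the 6 it was at 6.69, with 52 genes, while the other bands were at 14.4 and 10.4. The largest are Gm20388, at 4435 kb with 71 enclosed genes and 188 peaks, and Fgfr2, a growth factor receptor gene whose record spans 2961 kb with 29 enclosed genes and 76 peaks. Leaving the 6 records out, and giving a peak to any other very long gene that holds it, left 3200 peaks in 535 genes at 11.1 per Mb, which changes neither the order of the length classes nor that of the bands.

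By GC content of the gene record the range was wider. Of 5 groups of 108 or 109 genes, the one lowest in GC, at up to 38.4%, held 3.98 peaks per Mb, and the next groups held 8.30, 10.7 and 14.7. The group highest in GC, at 44.1 to 54.5%, held 25.1 per Mb. Of the 32 genes without a peak, 22 were in the lowest group, 8 in the second, 1 in the third and 1 in the fourth. Across 541 genes, density had a Spearman correlation of 0.69 with GC content and of -0.23 with length; genes share chromosomes and base composition with their neighbours, so no p is given. Peaks in GC-poor genes were not weaker: the median signal was 53.5 in the lowest group and 48.3 in the highest, and a core was found in 78.7% and 72.0%.

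**Figure D3:**
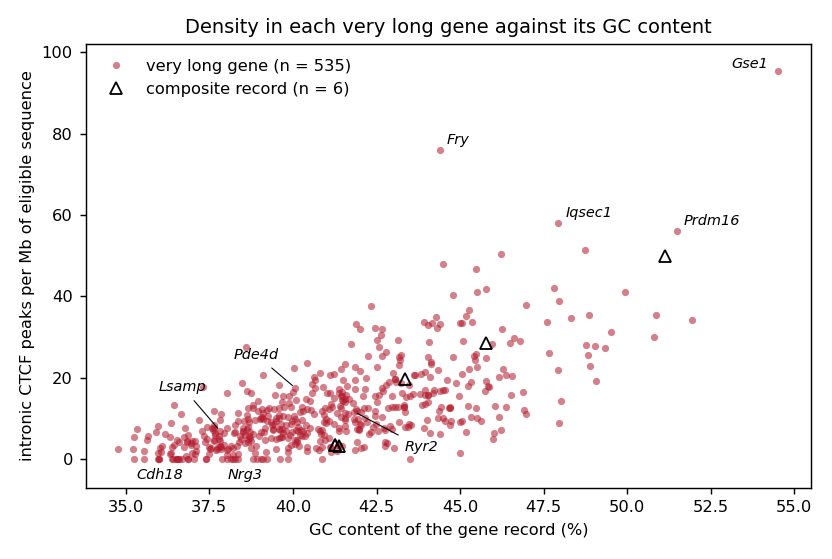
Intronic CTCF peaks per Mb of eligible sequence in each of 541 very long genes against the GC content of the gene record in percent; triangles are the 6 composite records. Density rises with GC content, with Gse1 at 95.3 per Mb and 54.5% GC at one end and genes without a peak, such as Nrg3 and Cdh18, at the other; Fry stands at 76.0 per Mb with 44.4% GC.

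Gse1 was the densest gene, with 32 peaks in 353 kb, or 95.3 per Mb, and 29 and 31 peaks in the libraries. It lies inside the composite record Gm20388. Its peaks had signals of 14.5 to 350 with a median of 55.4, 20 of them carried a core, and 15 reached the median signal of the optimal list, 60.8. Fry, which encodes a microtubule-associated protein, came next with 26 peaks in 379 kb, or 76.0 per Mb, and 24 and 22 in the libraries. The peaks of Fry were spread from 19.6 to 367 kb from the 5' end, with signals of 12.9 to 190 and a median of 31.4, and their single cores pointed along the gene in 10 cases and against it in 10. Dense genes were thus not made of strong peaks alone.

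Iqsec1 held 18 peaks (58.1 per Mb), with 14 and 14 in the libraries, and 5 reached the list median. Prdm16 held 17 (56.1 per Mb; 16 and 19 in the libraries), and only 2 reached it. Agap1, a GTPase-activating protein for Arf GTPases, held 21 (51.5 per Mb; 19 and 18), Arid1b, a subunit of the BAF chromatin remodelling complex, held 17 (50.3 per Mb; 19 and 19), and Atxn1, the gene of ataxin-1, held 19 (48.0 per Mb; 17 and 18). All these genes, Iqsec1 to Atxn1, had GC contents of 44.5 to 51.5%, above the 41.3% average of very long genes. By number alone, Camta1, a calmodulin-binding transcription activator, equalled Gse1 with 32 peaks in 945 kb (35.5 per Mb; 32 and 29). Kalrn held 27 (46.7 per Mb; 26 and 29), Nav2, a neuron navigator gene, held 27 in 701 kb (25 and 31) and Pde4d held 26 in 1504 kb (17.5 per Mb; 26 and 21). In Pde4d none lay nearer than 272 kb to the 5' end, and 16 of 26 reached the list median.

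At the other end stood 32 genes without an intronic peak, of which 24 had no optimal peak of any kind in the record. Of the 32, 10 had an intronic peak in at least 1 library, so their absence depends on the list. The longest was Nrg3, which encodes a neuregulin ligand of the ErbB4 receptor, at 1104 kb and 37.4% GC with 0 peaks in the optimal list and in either library. Cdh18, a cadherin gene of 925 kb, and Grik2, a kainate receptor gene of 694 kb, had 1 peak in replicate 1 and 0 in replicate 2. Malrd1 (729 kb), Nkain3 (660 kb), Fstl5 (636 kb) and Zfp804b (576 kb) had 0 in both. B3galt1, a galactosyltransferase gene of 557 kb, had 0 in the optimal list and 1 in each library, so its absence depends on the list. These 8 genes had GC contents of 35.6 to 38.3%. Peak-free stretches were long in genes with peaks too: the longest run without an optimal peak had a median of 213 kb over the 541 genes.

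Around the length threshold counts were as follows. The 5 genes just above it, of 300.3 to 302 kb, held 2 to 5 intronic peaks (Kcnq3 3, Pam 5, Nxph1 2, Zfp536 2 and Ranbp17 2). The 5 just below it, of 298 to 299.8 kb, held 2 to 12 (Slc44a5 2, AW554918 2, Atp2b2 5, Akap13 9 and Jazf1 12). At the distance threshold, 5 peaks lay at 1000 to 1100 bp from a 5' end with a median signal of 33.5, and 6 at 900 to 1000 bp with 30.1.

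Gene classes differed widely in density, between 5.64 and 17.3 peaks per Mb. The 13 lists below hold 274 of the very long gene symbols, 24 of them in more than 1 list, and the 266 genes in no list had a median density of 9.73 per Mb. Lists were chosen with earlier results known and are described by their values beside 11.7 per Mb, the pooled density of all very long genes, and 9.93, their median. No test was made of a list.

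Of the genes of gene regulation, transcription factor genes were dense and RNA-binding genes were near all very long genes. The 41 transcription factor and cofactor genes held 340 peaks, or 17.3 per Mb (17.3 ± 0.252 in the libraries, SD, n = 2), and 30 of 41 were above the median of all very long genes. Prdm16 was the densest of them, and Bnc2, a zinc finger gene of 400.2 kb, had 0 peaks. Their GC content averaged 42.8%. Their peaks were weak, with a median signal of 35.0 and a core in 65.9%, against 52.0 and 74.2% over all the peaks. The 7 genes of RNA-binding proteins held 12.8 per Mb (13.1 ± 0.135 in the libraries, 11.6 in the conservative list), with 4 of 7 above the overall median. Among them Msi2, a Musashi translational regulator, held 14 peaks (38.8 per Mb) and Adarb2, an adenosine deaminase relative, held 1 (1.87 per Mb). Rbfox1, a splicing regulator of heart and brain, held 19 in 1526 kb (12.5 per Mb; 18 and 19 in the libraries).

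Of the signalling and structural classes, kinases with phosphodiesterases and the cytoskeleton were dense and phosphatases were not. The 22 kinase and phosphodiesterase genes held 15.0 per Mb (15.0 ± 0.353 in the libraries), with 12 of 22 above the overall median. Prkce, a protein kinase C isoform of heart muscle, was highest at 18 peaks (37.95 per Mb), and Prkd1, protein kinase D1, had 0, with 1 in replicate 1 alone. The 41 cytoskeleton and scaffold records, in which 1 symbol has 2 records, held 16.02 per Mb (16.1 ± 0.0306), 31 of 41 above the median, and were led by Kalrn; Unc13c, a synaptic vesicle priming gene, was lowest with 1 peak (2.13 per Mb; 1 and 2 in the libraries, and 2 in the conservative list). Peaks in these genes were strong, with a median signal of 71.0 and a core in 79.3%. The 8 phosphatase genes held 8.85 per Mb (8.85 ± 0.199), with 3 of 8 above the median, between 12 peaks in Ptprg (18.2 per Mb) and 10 in the much longer Ptprd (4.49 per Mb), both receptor tyrosine phosphatases.

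Heart and striated muscle genes held 197 peaks in 23 genes, or 14.0 per Mb (14.1 ± 0.301 in the libraries), and 16 were above the median of very long genes. All 23 held at least 1 peak, where 94.1% of all very long genes did. Every gene of the RNA-binding, phosphatase, cytoskeleton and scaffold, and fragile site lists held one too. The GC content of the 23 averaged 41.4%, near the 41.3% of all. In Ryr2 there were 6 peaks (11.7 per Mb; 8 and 7 in the libraries), each with a core, and signals ran from 19.5 to 94.1. Cacna1c held 12 (20.7 per Mb; 13 and 11), 6 of them within 92.0 kb of the 5' end, and Cacnb2 held 4 (11.8 per Mb; 5 and 6). Palld held 12 (32.0 per Mb; 12 and 12). Prkg1 held 11 (9.32 per Mb; 13 and 11), Ctnna3 11 in 1574 kb (7.08 per Mb; 11 and 12) and Sgcd 7 in 1093 kb (6.48 per Mb; 8 and 7). Zfpm2 held 3, all in its last part, 322 to 425 kb from the 5' end. Sgcz, a sarcoglycan gene of 1139 kb with 36.1% GC, was the sparsest of the class with 2 peaks (1.78 per Mb).

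Ion channel genes, 30 in number, held 11.9 per Mb (12.2 ± 0.186), close to all very long genes. Itpr2, an inositol trisphosphate receptor, led with 15 peaks (40.5 per Mb), and Kcnh7, a potassium channel gene, had 0 in the optimal list, 1 in replicate 1 and 0 in replicate 2. Cacna1d, a pacemaker calcium channel gene, held 8 (18.9 per Mb; 7 and 9) and Cacna1e held 6 (12.8 per Mb; 5 and 4).

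The lists of neurotransmitter receptors, neuronal adhesion, axon guidance, and cadherins and catenins were sparse. Other genes of synapses are in the cytoskeleton and scaffold list, which was dense. Neurotransmitter receptor genes were lowest, with 57 peaks in 18 genes, or 5.64 per Mb (5.69 ± 0.0700 in the libraries), and 5 of 18 above the overall median. Gabbr2, a GABA-B receptor subunit, stood apart from them with 9 peaks (27.9 per Mb) at 49.0% GC, and Grik2 had 0. The 32 neuronal adhesion genes held 7.33 per Mb (7.18 ± 0.0516), from Kirrel3, a nephrin-like adhesion gene, at 13 peaks (24.4 per Mb) to Cntn6, a contactin gene, at 0; 8 of 32 were above the median. Lsamp held 15 peaks in 2197 kb (6.93 per Mb; 17 and 15), the nearest 288 kb from the 5' end. Axon guidance genes held 7.65 per Mb (8.02 ± 0.343), with the ligand gene Slit2 highest at 5 peaks (17.7 per Mb) and the netrin receptor gene Unc5c at 0. Unc5c had 1 peak in replicate 2. Cadherins and catenins held 8.39 per Mb (8.44 ± 0.323), from Cdh4 at 14 peaks (31.3 per Mb) to Cdh18 at 0.

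Extracellular matrix and glycan genes held 8.18 per Mb (8.04 ± 0.277), with Thsd4, a thrombospondin-domain gene, at 12 peaks (22.6 per Mb) and Spock3, a proteoglycan gene, at 0. Spock3 had 1 peak in the conservative list. The 20 genes of common fragile sites, chromosome regions prone to break under replication stress and known from human cells, were long, with a median of 1285 kb, and held 7.04 per Mb (6.90 ± 0.0839). All 20 had a peak, where 94.1% of all very long genes and 54 of the 55 genes over 1000 kb did. Counts ran from Rora, a nuclear receptor gene, at 18 (25.05 per Mb) to Naaladl2 at 1 in 1346 kb (0.754 per Mb). The Naaladl2 peak was among the strongest peaks of replicate 1 and not among those of replicate 2. It stood in the relaxed lists of both, with signals of 9.61 and 5.72. Macrod2 held 10 in 1998 kb (5.10 per Mb; 9 and 9) and Csmd1 held 9 in 1643 kb (5.61 per Mb; 8 and 7). Mean GC content was 39.7% in the fragile site list, 39.8% in the neuronal adhesion list and 39.5% in the guidance list, against 42.8% in the transcription factor list; its part in these differences was not tested.

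**Figure D4:**
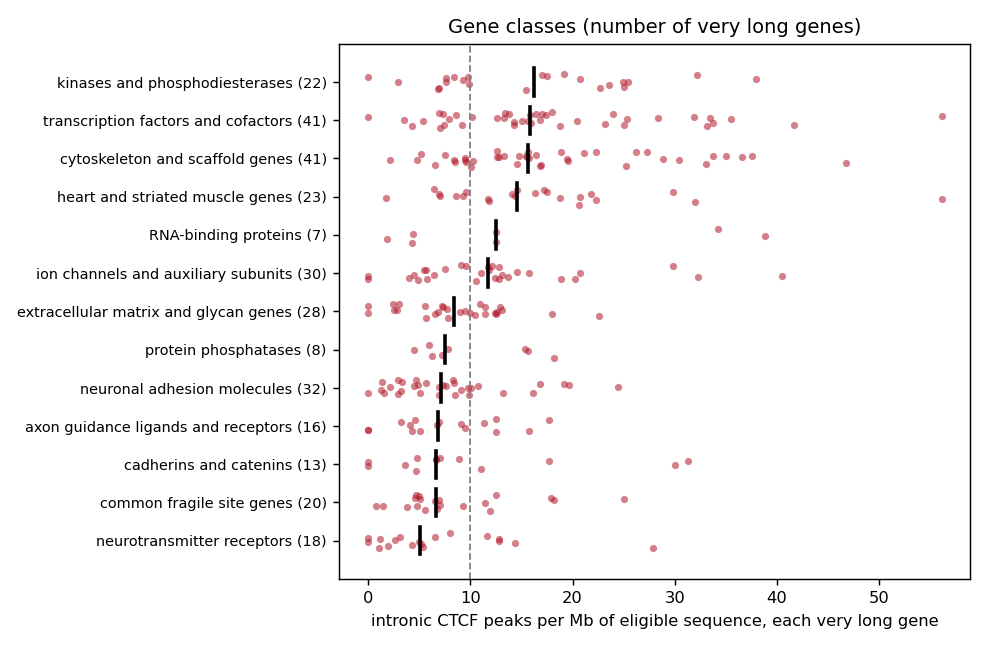
Intronic CTCF peaks per Mb of eligible sequence in each very long gene of 13 classes; the number of genes is in brackets, black bars are class medians and the dashed line is the median of all 541 genes, 9.93. Neurotransmitter receptor genes lie lowest, with 5 of 18 above the line, and 30 of 41 transcription factor genes lie above it.

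In strength, the peaks of very long genes were below those of every other place. Their median pooled signal was 52.0 (quartiles 26.1 and 113), against 55.7, 58.6 and 63.8 in the introns of genes of 100 to 300, 30 to 100 and up to 30 kb, and 75.1 between genes. The log2 difference in median from intergenic peaks was -0.53 in the optimal list, -0.51 in replicate 1 and -0.53 in replicate 2. From genes of 100 to 300 kb it was only -0.10, with -0.08 and -0.05 in the libraries. Fewer were among the very strong: 15.3% of peaks in very long genes, against 23.6% of intergenic peaks, were in the strongest of 5 equal groups of the optimal peaks on chromosomes 1 to 19, above 147. In the weakest group the shares were 21.3% and 16.8%.

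The libraries repeated these peaks slightly less often than others. The optimal list was itself made from both libraries by IDR, so high agreement is partly built in. Among the peaks of very long genes at or above the list's median signal, agreement was 100%. Agreement between places at like signal was not compared. Of the 3460, 81.8% (80.5 to 83.1%) had a summit of both libraries' own strongest peaks within 100 bp, against 82.9%, 82.6% and 84.5% in shorter genes and 86.0% (85.5 to 86.6%) of intergenic peaks, and 161 were in neither. In the conservative list 88.6% were present, against 89.4% of the other optimal peaks on these chromosomes. Where both libraries had the peak, replicate 2 was lower by a median log2 of -0.24, much as elsewhere (-0.23 in genes of 100 to 300 kb and between genes).

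A core lay within 50 bp of the summit in 2567 of the 3460 peaks, or 74.2% (72.7 to 75.6%), near the 73.4% of all optimal peaks on chromosomes 1 to 19. Windows of the same size 1000 bp to the left and right held one in 2.34% and 2.60%. Shares elsewhere were 73.6%, 76.1% and 79.2% in shorter genes and 79.1% between genes. Replicate 1 gave 74.0% and replicate 2 70.1% in very long genes. The difference from genes of 30 to 100 kb had one sign in every list, at -1.86 percentage points in the optimal list, -1.78 in replicate 1 and -3.43 in replicate 2. That from genes of 100 to 300 kb did not, at 0.63, 0.75 and -0.73 points in the same order. From intergenic peaks it was -4.93, -4.90 and -7.42 points. Set against intergenic peaks within the 5 groups of signal, the core share was lower in the weaker groups, with 53.9% in very long genes and 59.0% between genes in the weakest, 66.4% and 71.5% in the second and 77.8% and 80.2% in the third. It was about level in the stronger ones, with 86.6% and 86.4% in the fourth and 93.0% and 91.5% in the strongest. A core with 0 mismatches was found in 396 peaks, 11.4%, against 14.4% of intergenic peaks.

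A smaller share of cores lay in repeats than in other places, though the repeat content of the eligible sequence of each place was not compared. Soft-masked letters, which mark repeats in the genome file, covered at least 7 of the 14 bases in 15.5% of the cores in very long genes, against 20.02%, 24.8% and 24.5% in genes of 100 to 300, 30 to 100 and up to 30 kb and 17.6% between genes. The libraries gave 15.3% ± 0.686 in very long genes and 24.3% ± 0.808 in genes of 30 to 100 kb (SD, n = 2). Around the summit the 101 bases had a GC content of 50.5%, against 51.0% between genes, and 33.9% of these windows had no CpG, against 26.9%.

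Cores pointed along and against the gene in nearly equal number. Of 2505 peaks with exactly 1 best core, 1221 (48.7%, 46.8 to 50.7%) had it on the strand of the gene, and the libraries gave 48.7% ± 0.445 (SD, n = 2). In genes of 100 to 300 kb the share was 45.4% (43.9 to 47.0%), an interval wholly below an equal split. The libraries gave 45.7% ± 0.0480 there, so the gap was larger than the spread between libraries. The 2 intervals overlap only at their edges, and the difference was not tested. In genes of 30 to 100 kb the share was 47.9% (46.4 to 49.4%), an interval also below an equal split. In genes of up to 30 kb it was 50.4% (48.3 to 52.5%), so the shares did not follow gene length. Counts in single genes were small and ran both ways. Single cores pointed along the gene in 6 of 7 peaks of Ctnna3, 8 of 11 of Lsamp and 8 of 15 of Agap1. They pointed against it in 7 of 10 of Palld and in both of Zfpm2. Whether any single gene has a preferred strand was not tested.

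Along the gene, peaks were denser toward the 3′ end. With each gene cut into 3 equal parts, the 3′ part held 13.4 per Mb, the middle part 10.2 and the 5′ part 11.5. Both libraries gave this order, with 13.4, 10.3 and 11.4 in replicate 1 and 13.4, 10.5 and 11.3 in replicate 2. Without composite records the values were 12.96, 9.81 and 10.7. Peaks of the 3′ part were also the strongest, with a median signal of 56.1, against 46.8 in the middle part and 52.0 in the 5′ part. Of 10 equal parts, the last held 439 peaks without composite records and the seventh 272, the fewest. By intron, the first stretch between exons held 12.5 per Mb and all others 11.7, and the longest stretch held 11.4 and all others 11.997, counting a peak in each very long record that holds it.

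**Figure D5:**
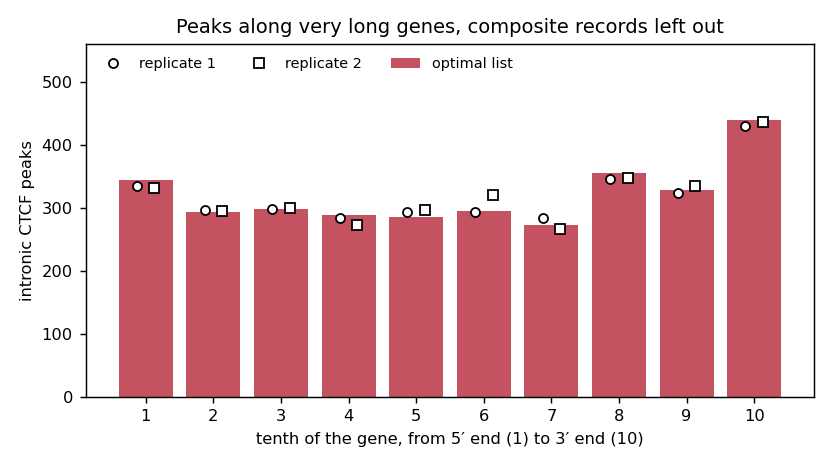
Number of intronic CTCF peaks in 10 equal parts of very long genes, from the 5′ end to the 3′ end, without the 6 composite records. Bars are the optimal list and open symbols each library's own strongest peaks; the last part holds 439 peaks and the seventh 272.

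Most of these sites were far from the 5' end of any gene record. Starts of single transcripts inside a record were not used, in the distance or in the peak rule. The median distance to the nearest gene 5' end of any type was 40.6 kb (quartiles 16.3 and 88.2 kb), and that to the nearest exon of the host, without composite records, was 9.98 kb (2.39 and 28.1 kb). Neighbouring peaks of the same gene were a median of 29.9 kb apart, against 17.3 kb in genes of 100 to 300 kb and 9.11 kb in genes of 30 to 100 kb, classes whose length limits the gap; 25.8% of the gaps were under 10 kb, against 34.2% and 53.1%.

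Pairs of neighbours with 1 core each changed in orientation with their gap. At 5 to 50 kb, 20.3% of 728 pairs (17.5 to 23.4%) were convergent, with the cores facing each other, 26.9% were divergent and 52.7% pointed the same way. At 50 to 500 kb, 29.8% of 554 pairs (26.002 to 33.8%) were convergent, 15.7% (12.8 to 19.01%) divergent and 54.5% the same way. In genes of 100 to 300 kb the convergent shares were 19.9% of 1243 pairs and 24.7% of 304 (19.9 to 29.9%), so the longer-gap intervals of the 2 classes overlap. A like order over all peaks of these data was already known, so this is no separate support for it.

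Between chromosomes, density in very long genes ran from 6.99 per Mb on chromosome 15 to 16.5 on chromosome 8. That highest value rests on Gm20388, and without composite records chromosome 8 held 11.2 per Mb.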

How the data were processed

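CTCF ChIP-seq peaks of 2 libraries of newborn heart were analysed as deposited, in narrowPeak lists on mm10. Per the text files beside the labels, the authors called 3 relaxed lists of 300000 peaks (replicate 1, replicate 2 and both together) against a control alignment not used here, and made the optimal and conservative lists from them by IDR. Aligner and peak caller: not given in the sources used here. Each peak's deposited signal value is the authors', of unstated scale, and served to order and compare peaks within 1 list. Values of the 2 libraries are set side by side as a description only. A higher value in 1 library is not read as stronger binding. Read depth is unknown, so no counting error of a signal is given. The summit is the deposited offset, in bp, added to the peak start.

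Sequence came from GRCm38 (mm10) and genes from GENCODE M21. A summit in several protein-coding records was given to the longest, except in values for single genes; 51 peaks lay in more than 1 very long record and 162 also in a shorter one. Density is peaks per Mb of known bases that meet the same rule. Spread is that of the libraries' own 44533 strongest peaks. Counts and densities given for a library are of these peaks too. A peak outside them can still stand in that library's relaxed list. Intervals are exact binomial at 95%. Cores and the peak rule were tested on simulated data. No test across conditions exists, with 1 group. Python 3.11.15, numpy 2.4.6, pandas 2.3.3, scipy 1.17.1 and matplotlib 3.10.9 were used.

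The peaks and the gene lists were chosen with earlier results of these data known. Genes named are the hosts of the 12 strongest peaks, the 8 with most peaks, the 8 densest with at least 5 peaks, the 8 longest without a peak, the extremes of each class, and 12 genes listed by name (Ryr2, Cacna1c, Cacnb2, Prkg1, Pde4d, Sgcd, Ctnna3, Zfpm2, Prdm16, Rbfox1, Csmd1 and Macrod2). The 10 genes at the length threshold follow from it. The exclusion of composite records was chosen after seeing the data. Alternatives were the conservative list, each library alone, the list's median signal, other gene lengths, 2000 bp from 5' ends, whole gene records, and other limits on the core and on summit distance.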

Additional observations from a re-analysis of the deposited data

How the results depend on the processing

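No paired analysis was possible because the libraries form 1 group. Densities are per Mb, signal is the log2 difference in median from intergenic peaks, ratio is that to genes of 30 to 100 kb and position is the density of the 5′ part over that of the 3′ part, of 3. All stayed on the same side except the strand of the core, which was near 50% in each setting. Peaks at or above the median signal gave 1553 peaks in 81.3% of genes, density 5.26, ratio 0.417, signal -0.13, core 87.6%, sense strand 49.5%, position 0.831 and agreement 100%. Genes over 500 kb gave 1817 peaks, density 10.2, ratio 0.394, signal -0.49, sense strand 51.1% and position 0.888, and genes over 200 kb density 13.4, ratio 0.518, signal -0.51, sense strand 48.0% and position 0.851. A limit of 2000 bp gave density 11.6, signal -0.50 and position 0.833. Whole gene records gave density 11.2 and ratio 0.517. Without composite records, chosen after seeing the data, density was 11.1, ratio 0.431 and position 0.826. The core share was 43.5% with at most 1 mismatch, 90.9% with 3 and 67.4% within 25 bp. The conservative list gave density 11.3, signal -0.49 and position 0.876.

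Added after seeing the data, the conservative list gave class densities of 7.11 (neuronal adhesion), 7.66 (cadherins and catenins), 5.55 (neurotransmitter receptors), 14.2 (kinases and phosphodiesterases), 8.01 (phosphatases), 16.02 (transcription factors), 11.6 (RNA-binding), 15.2 (cytoskeleton and scaffold) and 6.45 (fragile sites). With each library left out in turn, density was 11.67 to 11.73, signal -0.53 to -0.51, the core share 70.1 to 74.0% and position 0.847 to 0.857. Class densities were 7.15 to 7.22 (neuronal adhesion), 7.77 to 8.26 (guidance), 5.64 to 5.74 (neurotransmitter receptors), 12.1 to 12.3 (channels), 13.9 to 14.3 (heart and muscle), 17.1 to 17.4 (transcription factors), 12.98 to 13.2 (RNA-binding), 7.84 to 8.23 (matrix and glycan), 16.06 to 16.10 (cytoskeleton and scaffold) and 6.84 to 6.96 (fragile sites).

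Single genes with few peaks depend most on the list: over the named genes, 18 alternative counts differed from the optimal list's by more than 1.5 times, or at 0 on one side only, and 159 differed by less or not at all, such as Iqsec1 with 14 in each library and 18 in the optimal list; among the 18 were Naaladl2, with 0 in replicate 2 and 1 in the optimal list, and B3galt1, with 1 in each library and 0 in the optimal list. Settings that moved a value also changed which peaks, genes or bases were counted.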

Other observations

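Chromosome X, which the rule of chromosomes 1 to 19 leaves out, held 26 very long genes with 77 intronic peaks by the same rule, 78 and 77 in the libraries, in 24 of the genes. Their density was 4.94 peaks per Mb, against 4.86 between genes on that chromosome, both below the values on chromosomes 1 to 19. Sex was not collected, so the number of X copies is unknown, and these 26 genes had GC contents of 34.6 to 41.8%. The part of either in the lower density was not tested. Dmd, the gene of the muscle protein dystrophin, held 7 peaks in 2257 kb, or 3.15 per Mb, at a GC content of 36.2%. Gpc3, a glypican gene, was the densest at 18.3 per Mb with 6 peaks. The median signal on X was 43.3, and a core was found in 84.4% of the peaks.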
